A study of Mus musculus with 18 samples.

Results

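The genes described here are the 10 that encode the eIF4F cap-binding machinery and its direct partners, among 55401 genes counted in mRNA-seq of NIH/3T3 cells with and without XPO4. They are the cap-binding proteins Eif4e and Eif4e2, the eIF4E-binding inhibitors Eif4ebp1 and Eif4ebp2, the scaffolds Eif4g1, Eif4g2 and Eif4g3, the RNA helicases Eif4a1 and Eif4a2, and the helicase cofactor Eif4b. The genes were selected by name from a list drawn up with their KO and WT counts already known. Their differences between genotypes in mRNA-seq are therefore given as a description, without a test of single genes. Only the number of them past the threshold is set beside that of all genes. All 10 passed the filter on low counts.

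Translation of most mRNAs starts at the 5′ cap. eIF4E binds the cap, eIF4G links eIF4E to the small ribosomal subunit, and the helicase eIF4A, helped by eIF4B, unwinds the leader so that the ribosome can scan to the start codon. The 4E-BPs compete with eIF4G for eIF4E until mTORC1 phosphorylates them, and so couple growth signals to cap-dependent translation.

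NIH/3T3 is a mouse embryonic fibroblast line. Wild type (WT) cells were compared with 1 XPO4 knockout (KO) line, made with CRISPR-Cas9 by a short frameshifting deletion in exon 1 of Xpo4, which encodes the nuclear export receptor exportin 4. The labels name no treatment of either genotype. mRNA-seq was made from total RNA of 3 WT and 3 KO samples, and circRNA-seq, after RNase R digestion of linear RNA, from nuclear, cytoplasmic and total RNA with 2 samples of each genotype and fraction. Nothing in the labels says that the replicates were separate cultures, so p-values measure the spread between these libraries, which may be technical.

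Each mRNA-seq library held between 16974062 and 22057323 counted reads. Across the genes tested, Spearman rho was between 0.994 and 0.997 for libraries of 1 genotype and between 0.967 and 0.974 across genotypes. KO replicate 2 stood apart from the other KO libraries, with a chi-square per gene of 12.5 and 14.5 against them, where the other pairs of 1 genotype had between 3.36 and 5.79. Xpo4 was counted 657, 614 and 685 times in WT and 712, 504 and 687 times in KO. A deletion this short may not show in counts over the whole gene, so Xpo4 does not check the labels. Inside all 6 mRNA-seq files the count column is named for the other genotype. The sample titles were followed, "KO" below means the libraries labelled KO, and every KO minus WT direction in mRNA-seq would turn if the column names were right. The lines also differed beyond Xpo4. Of 7 chromosome Y genes tested, 5 had 0 reads in every WT library and between 34 and 594 in each KO library, and the median log2 fold change of chromosome 10 was 0.45. Markers of fibroblasts summed to between 25070 and 26703 CPM in WT and between 23670 and 26522 in KO. The extraction text in the labels speaks of peripheral blood, but 18 blood cell markers summed to between 15.5 and 19.01 CPM in WT and between 8.70 and 9.49 in KO, with 6 of them, among them Cd3e, Ms4a1 and the globins Hbb-bs and Hbb-bt, at 0. Of 8 epithelial markers, 3 were at 0 and the sum was between 5.22 and 5.89 CPM in WT and between 1.00 and 1.74 in KO. The sums of 6 endothelial markers were between 2.09 and 2.97 in WT and between 1.28 and 2.24 in KO, and those of 7 neural markers between 22.4 and 25.7 in WT and between 24.3 and 27.5 in KO.

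The circRNA part of the data turned on 4 of the 10 genes, and the backsplice junctions of 6 circles are printed here because each of them defines the circle that was counted. They are the 5 exonic circles with at least 10 reads in 1 library and the only circle of Eif4e2. Each junction is read 5′ to 3′ on the plus strand of GRCm38, with the last 20 bases of the downstream exon in lower case and the first 20 bases of the upstream exon, to which it was joined, in capitals. The Eif4e2 circle holds exons 2 to 6 (chr1:87219581-87226233), the Eif4g1 circle exons 14 to 17 (chr16:20683418-20684508) and the Eif4b circle exon 8 alone (chr15:102088857-102089030). The Eif4g3 circles hold exons 3 to 4 (chr4:138045343-138058077), exons 6 to 7 (chr4:138096752-138097359) and exon 11 alone (chr4:138125810-138126634).
Eif4e2 exons 2 to 6: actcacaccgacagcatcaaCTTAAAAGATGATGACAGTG
Eif4g1 exons 14 to 17: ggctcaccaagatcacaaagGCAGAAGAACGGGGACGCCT
Eif4g3 exons 3 to 4: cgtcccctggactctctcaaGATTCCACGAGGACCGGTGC
Eif4g3 exons 6 to 7: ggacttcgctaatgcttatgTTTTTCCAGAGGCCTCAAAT
Eif4g3 exon 11: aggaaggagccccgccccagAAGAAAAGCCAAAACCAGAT
Eif4b exon 8: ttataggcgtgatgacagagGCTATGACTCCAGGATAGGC

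In mRNA-seq, the cap-binding protein Eif4e and the helicase cofactor Eif4b differed most between genotypes among the members, in opposite directions. Eif4e, on chromosome 3, had the larger transcript level in KO, and Eif4b, on chromosome 15, had the smaller one. Levels are given as FPKM, the counted reads scaled to the exon length and to the library total. The exon length takes in all annotated transcripts of a gene, 10166 bases for Eif4g2, 6008 for Eif4e and 2196 for Eif4ebp1. The order of levels between genes depends on this length, while the differences of a gene between genotypes do not. The spread of a mean is the SD of 3 libraries, and fold changes come from edgeR with TMM scaling, with their standard error on the log2 scale.

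Eif4e, the protein that holds the cap, had 15.4, 17.4 and 17.03 FPKM in the WT libraries and 23.9, 25.6 and 24.6 in the KO libraries. All 3 KO libraries lay above all 3 WT libraries, with means of 24.7 ± 0.852 and 16.6 ± 1.06 (SD, n = 3). KO was 1.48-fold higher (log2 fold change 0.57 ± 0.063, SE). In bulk RNA, a difference in the share of expressing cells and a difference in RNA per cell cannot be told apart. Eif4e2, also called 4EHP, binds the cap without recruiting eIF4G and is known for repressing the mRNAs it holds. Its FPKM was 16.4, 15.6 and 15.7 in WT and 14.1, 14.4 and 14.1 in KO. The groups did not overlap, but the difference was small (log2 fold change -0.16 ± 0.053, SE). In WT the level of Eif4e overlapped that of Eif4e2, while in KO every library had more Eif4e than Eif4e2. The Eif4e2 to Eif4e ratio within a library was 1.06, 0.895 and 0.925 in WT and 0.591, 0.561 and 0.575 in KO.

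Both inhibitors had a higher level than Eif4e in every library, Eif4ebp2 by little in KO, and they differed between genotypes in opposite directions. Eif4ebp1 had 52.3, 55.7 and 55.2 FPKM in WT and 44.5, 51.0 and 44.6 in KO. KO replicate 2 stood closer to WT than the other KO libraries did, and the groups did not overlap (log2 fold change -0.22 ± 0.067, SE). Eif4ebp2, the second 4E-BP, had 27.1, 26.0 and 25.4 FPKM in WT and 33.6, 30.6 and 33.1 in KO. Every KO library was higher (log2 fold change 0.31 ± 0.056, SE). The Eif4ebp2 to Eif4ebp1 ratio was 0.481 ± 0.0319 in WT and 0.698 ± 0.0866 in KO (SD, n = 3).

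Ratios within a library do not depend on the scaling between libraries, and 3 of the 4 ratios taken to Eif4e shifted more than any other ratio. The Eif4ebp1 to Eif4e ratio was 3.39, 3.20 and 3.24 in WT and 1.86, 1.99 and 1.81 in KO. The groups were far apart relative to their spread (KO minus WT on the log2 scale, -0.79 ± 0.048, SE, n = 3 per genotype). The Eif4ebp2 to Eif4e ratio was 1.76, 1.49 and 1.49 in WT and 1.41, 1.19 and 1.35 in KO, and the groups were separated only by the gap between 1.49 and 1.41. By FPKM, each 4E-BP thus exceeded Eif4e in every library of both genotypes, by less in KO. In counted reads, Eif4ebp1 lay below Eif4e in the KO libraries, at 1743, 2009 and 1663 against 2560, 2757 and 2508.

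**Figure D1:**
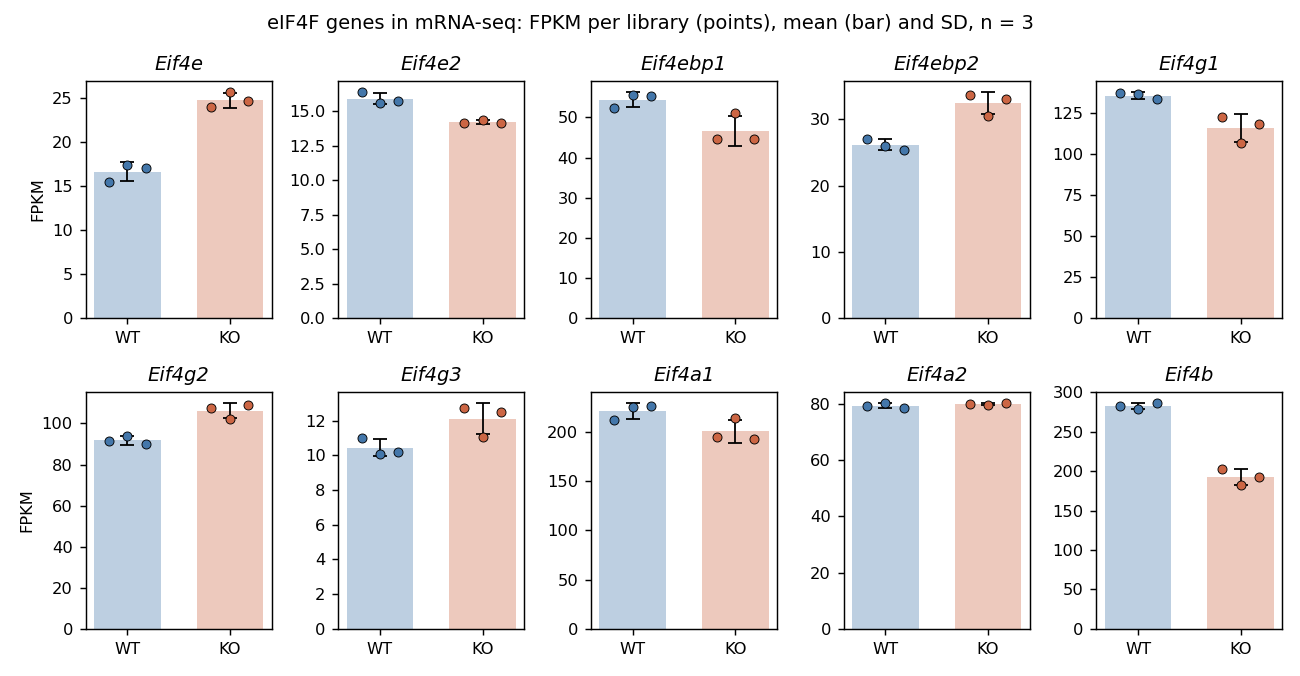
FPKM of the 10 eIF4F genes in mRNA-seq, one panel per gene with its own vertical axis from 0, for 3 WT (blue) and 3 KO (orange) libraries. Points are libraries, bars are means and error bars are SD, and the WT and KO points are apart in every panel except those of Eif4a1 and Eif4a2.

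The 3 scaffolds did not share a direction. Eif4g1, the main scaffold of eIF4F, had 137.3, 136.6 and 133.6 FPKM in WT and 123.0, 106.8 and 118.6 in KO. All KO libraries were lower, and KO replicate 2 was the lowest of them (log2 fold change -0.23 ± 0.056, SE). Eif4g2, also called DAP5, lacks the eIF4E-binding region and serves initiation that does not need eIF4E. Its FPKM was 91.3, 94.0 and 90.0 in WT and 107.5, 101.9 and 109.1 in KO, higher in every KO library (log2 fold change 0.21 ± 0.050, SE). Eif4g3, the second cap-dependent scaffold, had the lowest FPKM of the 10 genes. It had 10.99, 10.1 and 10.2 in WT and 12.7, 11.1 and 12.5 in KO. KO replicate 2 lay next to WT replicate 1, at 11.07 against 10.99 (log2 fold change 0.21 ± 0.064, SE).

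The proportions of the scaffolds differed between genotypes more than their sum. The Eif4g1 to Eif4g2 ratio was 1.50, 1.45 and 1.48 in WT and 1.14, 1.05 and 1.09 in KO, a shift of -0.44 ± 0.040 (SE) on the log2 scale. The Eif4g1 to Eif4g3 ratio was 12.5, 13.5 and 13.1 in WT and 9.66, 9.65 and 9.48 in KO, a shift of -0.44 ± 0.035 (SE). The summed FPKM of Eif4g1, Eif4g2 and Eif4g3 was 239.6, 240.7 and 233.8 in WT and 243.3, 219.8 and 240.1 in KO. These sums overlapped between genotypes, with KO replicate 2 the lowest.

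The 2 helicases overlapped between genotypes. Eif4a2 had 79.2, 80.3 and 78.5 FPKM in WT and 80.1, 79.6 and 80.2 in KO (log2 fold change 0.01 ± 0.049, SE). Of the exon bases of Eif4a2, 13.3% are shared with other annotated genes, which include Rfc4 and snoRNAs of its introns, and reads there could not be assigned to it. Eif4a1, the major helicase of growing cells, had 211.3, 224.7 and 226.3 FPKM in WT and 194.2, 213.4 and 193.0 in KO. Its KO replicate 2 lay above WT replicate 1 (log2 fold change -0.14 ± 0.058, SE). The Eif4a1 to Eif4a2 ratio also overlapped, at 2.67, 2.80 and 2.88 in WT and 2.42, 2.68 and 2.41 in KO.

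Eif4b had the highest FPKM of the members in WT and differed as much as Eif4e. Its FPKM was 282.5, 279.0 and 286.3 in WT and 202.5, 183.0 and 191.9 in KO. All KO libraries lay far below all WT libraries, with means of 192.5 ± 9.77 and 282.6 ± 3.62 (SD, n = 3), and KO was at 0.680 of WT (log2 fold change -0.56 ± 0.052, SE). The Eif4b to Eif4a1 ratio was 1.34, 1.24 and 1.27 in WT and 1.04, 0.857 and 0.994 in KO. Set against Eif4e, Eif4b was 18.3, 16.0 and 16.8 times as high in the WT libraries and 8.47, 7.15 and 7.80 times as high in the KO libraries, the largest ratio shift of the 9 computed (log2 -1.13 ± 0.091, SE). The groups did not overlap in 8 of these 9 ratios.

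**Figure D2:**
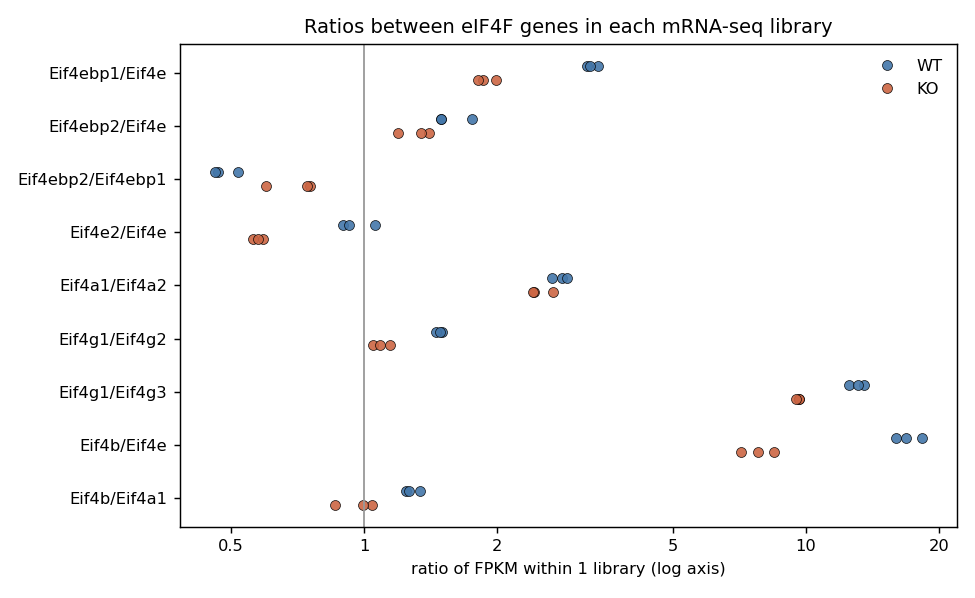
Ratios of FPKM between pairs of eIF4F genes within each mRNA-seq library, on a log axis, with 3 WT (blue) and 3 KO (orange) points per pair. KO lies left of WT for every pair except Eif4ebp2 to Eif4ebp1, and only the Eif4a1 to Eif4a2 points of the genotypes overlap.

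In WT the order by FPKM was Eif4b, Eif4a1, Eif4g1, Eif4g2, Eif4a2, Eif4ebp1, Eif4ebp2, Eif4e, Eif4e2 and Eif4g3. Of these neighbours, Eif4e and Eif4e2 did not differ beyond the range of their libraries. In KO, Eif4a1 and Eif4b exchanged places and overlapped. The levels of Eif4g1 and Eif4g2 kept their order but overlapped in KO, while the other neighbours stayed apart. Together the 10 genes took 0.514%, 0.521% and 0.517% of all counted reads in WT and 0.485%, 0.466% and 0.478% in KO. Single members had between 1663 and 28213 reads in a library, and the SD within a genotype was between 0.413% and 7.99% of the mean.

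Across all 14688 genes tested, 7151 or 48.7% had an adjusted p under 0.05 with edgeR's quasi-likelihood test, 25.1% higher and 23.6% lower in KO. Of the 10 members 8 did, 4 of them higher and 4 lower. The FPKM of 8 members did not overlap between genotypes, beside 57.8% of the genes tested. Nothing is read from these counts, because the genes were chosen from a list made with this contrast known. No member passed 2-fold, against 10.2% of the genes tested, and the median absolute log2 fold change was 0.22 over the members and 0.28 over all genes. With KO replicate 1 or WT replicate 3 left out, 5 members had an adjusted p under 0.05. Without KO replicate 2, which stands apart, the log2 fold changes of the members kept their direction. Eif4e was then at 0.54, Eif4b at -0.52, Eif4ebp2 at 0.35, Eif4ebp1 at -0.29, Eif4g3 at 0.27, Eif4g2 at 0.24, Eif4a1 at -0.19, Eif4e2 and Eif4g1 at -0.17 and Eif4a2 at 0.01.

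Whole chromosomes differed in level between the lines, so each member was set beside the median log2 fold change of the tested genes on its own chromosome. For Eif4ebp2 on chromosome 10 that median was 0.45 over 689 genes, above the 0.31 of Eif4ebp2 itself. For Eif4e2 on chromosome 1 the median was -0.21 over 885 genes, next to -0.16 for the gene. For Eif4e on chromosome 3 the median was 0.16 over 753 genes, and Eif4e stood 0.41 above it. Eif4b stood 0.44 below the -0.12 of chromosome 15 over 597 genes. The medians for the other 6 genes were between -0.05 and 0.04. Differences of this size were common among single genes, as 23.6% of all genes tested had a larger absolute log2 fold change than Eif4e and 24.2% a larger one than Eif4b. The part of chromosome copy number in these values was not tested.

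**Figure D3:**
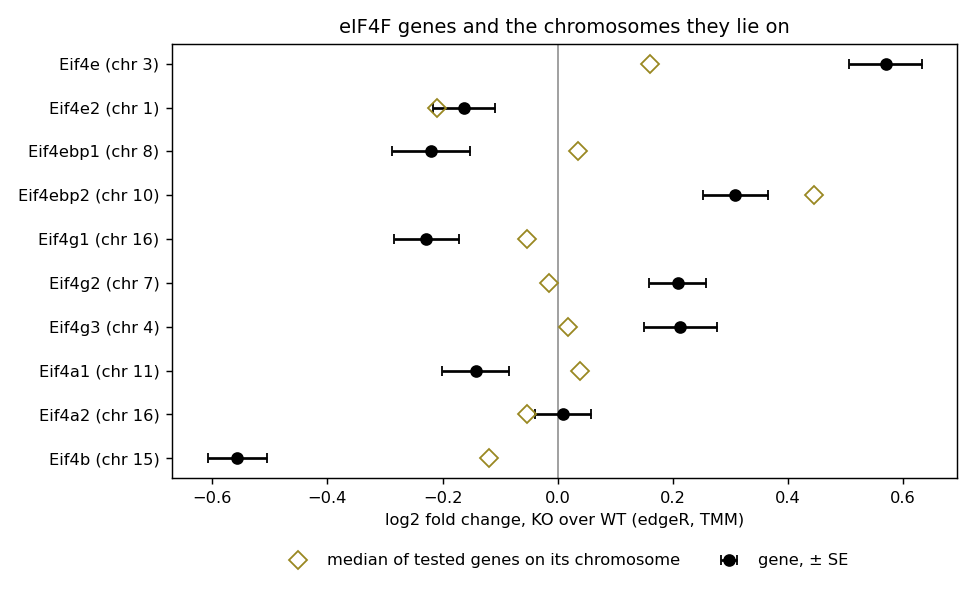
Log2 fold change (KO over WT, edgeR) of each eIF4F gene with its SE (black) and, as open diamonds, the median over the tested genes of the same chromosome. Eif4e at 0.57 and Eif4b at -0.56 lie farthest from their diamonds, and the Eif4ebp2 diamond, at 0.45, lies above the gene.

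Around the 10 genes, the mRNAs of 5 further groups of the initiation machinery and its control were followed. These groups were also chosen with earlier results of these data known, so their calls are a description. Their genes were not set beside the medians of their chromosomes, of which that of chromosome 10 was 0.45. The group of other cap-complex partners held 24 genes, of which 21 were tested. Of these, 3 rose, 6 fell and 12 did not pass the test, a share called of 42.9% beside 48.7% of all genes, and the median log2 fold change was -0.01 against -0.00293 over all genes. Without WT replicate 2 the number called was 4. The poly(A)-binding proteins, which bridge the mRNA tail to eIF4G, fell most. Pabpc1 had 483.5, 484.1 and 491.5 FPKM in WT and 285.1, 295.9 and 291.8 in KO (log2 fold change -0.74 ± 0.047, SE). Pabpc4 went from 107.0 ± 1.30 to 67.0 ± 0.813 FPKM (SD, n = 3, log2 fold change -0.68). Pdcd4, which holds eIF4A away from eIF4G, fell by 0.36 on the log2 scale. The eIF4E kinases rose, Mknk2 by 0.41 and Mknk1 by 0.23, and Paip1, a partner of Pabpc1, rose by 0.20. Eif4h, a relative of Eif4b in function, had a log2 fold change of -0.01 (adjusted p = 0.881). Eif4e3 had 0 reads in all 6 libraries, and Eif4ebp3, with between 6 and 13 reads, was below the filter.

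In the mTORC1 group, whose kinase phosphorylates the 4E-BPs, 9 of 27 genes rose, 7 fell and 11 did not pass the test. The share called was 59.3% beside 48.7% of all genes, and the median log2 fold change was 0.04. Mtor itself had a log2 fold change of -0.05 (adjusted p = 0.635) and Rptor of -0.08 (adjusted p = 0.220), so the core kinase did not pass the test. Deptor, an inhibitor of mTOR, was counted 449, 408 and 479 times in WT and 146, 124 and 125 times in KO and fell by 1.54 on the log2 scale. The Sestrins, stress-induced inhibitors of mTORC1, split, as Sesn1 rose by 0.62 while Sesn2 fell by 0.72 and Sesn3 by 0.23. Of the Ragulator subunits, which hold mTORC1 at the lysosome, Lamtor2 rose by 0.87 and Lamtor4 by 0.50. Eef2k, which slows elongation, fell by 0.62.

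The 43S and eIF2 group differed by little. Of 20 genes 6 rose, 4 fell and 10 did not pass the test (50% called beside 48.7% of all genes, median log2 fold change 0.05), and no log2 fold change was beyond -0.25 or 0.27. The number called was 3 without WT replicate 3, 4 without KO replicate 1 or WT replicate 1 and 6 without WT replicate 2. Eif2b4, a subunit of the exchange factor that reloads eIF2 with GTP, rose by 0.27, and Eif2b5, another of its subunits, fell by 0.19. Eif1ax and Eif2s2 rose by 0.20 and 0.17, while Eif2d and Abce1, the ribosome recycling factor, fell by 0.25 and 0.17. Beside these stood Eif2s3y, the copy of the eIF2 gamma gene on chromosome Y, which was in no list and is named after its counts were seen. It had 0 reads in each WT library and 325, 324 and 282 in the KO libraries, whereas its X-linked counterpart Eif2s3x had a log2 fold change of -0.11 (adjusted p = 0.0943).

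Of the 14 eIF3 subunit genes, 2 rose, 7 fell and 5 did not pass the test. The share called was 64.3% beside 48.7% of all genes, and the median log2 fold change was -0.16. The number called was 5 without KO replicate 1, WT replicate 2 or WT replicate 3, and 11 without KO replicate 2. eIF3 is the complex through which eIF4G meets the small ribosomal subunit. Eif3e had 62.9, 69.7 and 65.1 FPKM in WT and 49.9, 56.4 and 50.8 in KO (log2 fold change -0.33 ± 0.064, SE). Eif3f fell by 0.29 and Eif3l by 0.27. Eif3j2 rose by 0.50 and Eif3g by 0.16. Eif3j2 is a close copy of Eif3j1, and reads that map to both were not counted for either.

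The last group held 15 genes whose mRNAs are known for a translation that depends on the amount of eIF4E, and here only their mRNA level was measured. Of 14 tested, 5 rose, 5 fell and 4 did not pass the test (71.4% called beside 48.7% of all genes, median log2 fold change 0.06). Ccnd1, which encodes cyclin D1, had 18.2, 17.3 and 17.6 FPKM in WT and 41.6, 39.2 and 45.4 in KO (log2 fold change 1.24 ± 0.062, SE). Fgf2, a growth factor, was counted 79, 79 and 75 times in WT and 263, 257 and 259 times in KO and rose by 1.96, and Bcl2l1, which protects from cell death, rose by 0.77. Mmp9, a secreted protease, was counted 863, 879 and 946 times in WT and 174, 168 and 171 times in KO and fell by 2.17. Myc fell by 0.86, from 49.4 ± 2.48 to 27.2 ± 0.320 FPKM (SD, n = 3), and Vegfa, the vascular growth factor, fell by 0.46.

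**Figure D4:**
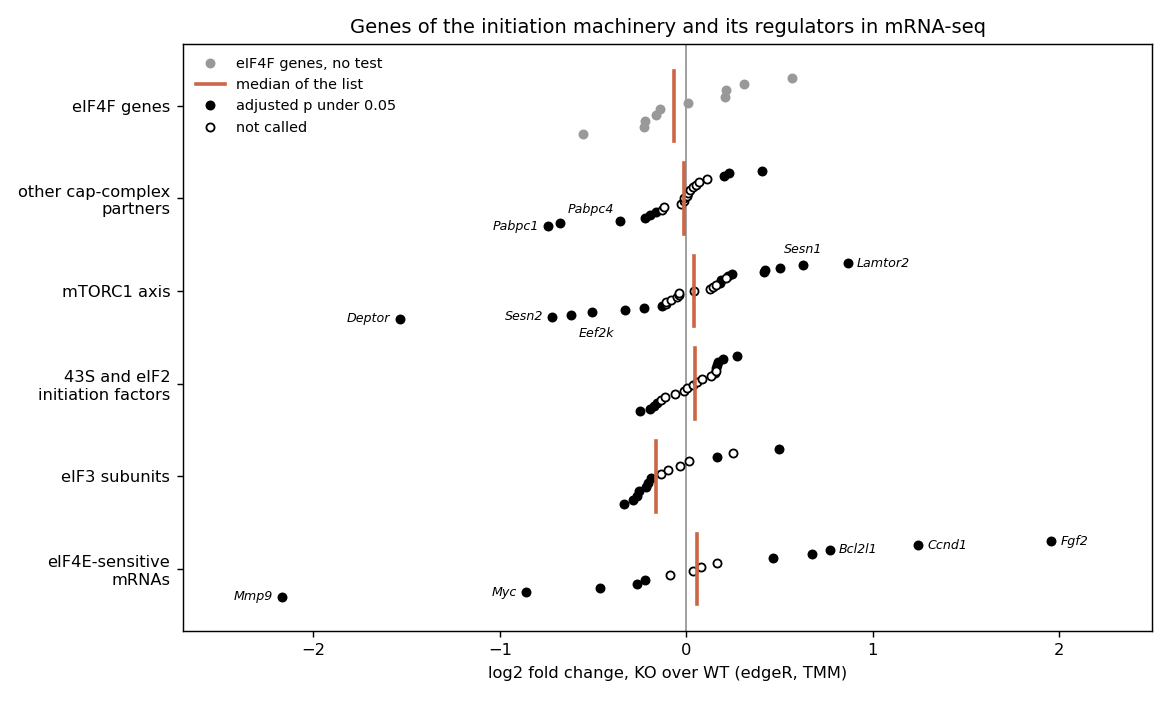
Log2 fold change (KO over WT, edgeR) of the tested genes of 6 groups, 1 point per gene, filled where the adjusted p was under 0.05 and grey for the eIF4F genes, whose single values carry no test, with the group median as a vertical bar. The eIF4F genes lie within 0.57 of 0 on either side, the eIF3 median is -0.16, and the genes known for eIF4E-sensitive translation spread from -2.17 to 1.96.

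The circRNA libraries were not used to list the 10 genes and gave a separate readout of 4 of them. A circRNA is counted by the reads that span its backsplice junction. Across all circRNA libraries, 15 positions lay inside Eif4g3 (10), Eif4g1 (2), Eif4b (2) and Eif4e2 (1), and none was listed for the other 6 genes. In 14 of them both ends were exon edges, the intron bases outside the ends read AG before and GT after, and the spliced circles held between 174 and 825 bases. The remaining position, chr15:102077019-102077359 in Eif4b, was off the exon edges, and the bases outside it read AC and CT on the plus strand, the reverse complement of GT and AG. The files give no strand, so this position may not belong to Eif4b, and it was the only one of the 15 found in the nucleus, read 1 and 3 times in WT against 3 and 4 times in KO.

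Depth was low. The 10 circles of the cytoplasmic libraries had 195 reads in all, the 9 of the total RNA libraries 147 and the nuclear one 11. Whole libraries of cytoplasmic or total RNA held between 50341 and 81941 junction reads, and nuclear ones between 2189 and 4383. Exonic circles of the 10 genes were thus not detected in the nuclear fraction at this depth. Across all circRNAs, Spearman rho was 0.872 and 0.810 between replicates in the cytoplasm but between -0.21 and -0.11 for WT against KO libraries, and in total RNA 0.731 and 0.741 against -0.07 to 0.03. Counts of WT and KO circles were thus unrelated or inversely ranked across these tables as a whole, and the values of the members stand beside that.

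In the cytoplasm, 9 circles of the 10 genes had enough reads for a test. With edgeR, 5 were higher and 3 lower in KO at an adjusted p under 0.05, a total of 8, beside 53.5% of the 8917 circles tested. Each of these 8 had 1 or 2 reads in every library of the genotype where it was lower. It passed the filter on summed reads only through the genotype where it was higher. Circles low in both genotypes were not tested, so the calls are a description, and the same filter lies behind the share over all circles. In raw reads, not scaled for the greater depth of the WT libraries, all 9 were separated between genotypes, as were 82.4% of the circles tested. Separation after scaling was not computed. DESeq2 called 1 of the 9, beside 5.08% of all. These circles share host genes and libraries and are not independent of each other.

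The circle that both tools called was the Eif4g1 circle of exons 14 to 17, 603 bases long once spliced. It had 1 and 2 reads in the WT and 13 and 14 reads in the KO cytoplasmic libraries (log2 fold change 3.59 ± 0.57, SE, edgeR adjusted p = 0.000165). In total RNA the same junction was read 2 and 6 times in the WT libraries and 3 and 5 times in the KO libraries, which overlapped (log2 fold change 0.04, edgeR adjusted p = 0.963). The Eif4g1 mRNA, in contrast, was lower in KO by 0.23, a direction that rests on the sample titles of the mRNA-seq libraries. A shorter circle of exon 14 alone was read 3 times in each WT library and 3 and 0 times in the KO libraries of total RNA, and it was not listed in the cytoplasm.

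The Eif4b circle of exon 8 went the other way. It had 13 and 11 reads in the WT and 1 read in each KO cytoplasmic library (log2 fold change -2.92 ± 0.67, SE, edgeR adjusted p = 0.00149), and it was not listed in total RNA. DESeq2 gave it an adjusted p of 0.101, and with either KO library left out the edgeR adjusted p was 0.0567 or 0.0716. The circle is the whole exon, 174 bases with a GC content of 54.6%, shown here in full because it is the shortest of the 14 and the member circle with the largest drop.
Eif4b exon 8: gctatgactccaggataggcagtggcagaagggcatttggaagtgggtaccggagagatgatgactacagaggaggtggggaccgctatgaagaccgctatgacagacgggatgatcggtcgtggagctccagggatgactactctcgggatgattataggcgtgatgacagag

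Eif4g3, whose mRNA had the lowest FPKM of the 10, gave most of the circles. In the cytoplasm its circles summed to 39 and 36 reads in the WT libraries against 30 and 34 in the KO libraries, and in total RNA to 34 and 28 against 31 and 21. These sums are raw reads, and the WT cytoplasmic libraries were deeper, with 77818 and 81941 junction reads against 50629 and 63335 in KO. The sums were not tested, and single circles differed in both directions. The circle of exons 6 to 7, the best covered of all, was read 18 and 11 times in the WT cytoplasm against 4 and 9 times in the KO cytoplasm (log2 fold change -0.63 ± 0.54, SE, edgeR adjusted p = 0.319) and 20 and 8 times against 14 and 7 times in total RNA. The circle of exons 3 to 4 was read 2 and 1 times in the WT cytoplasm against 10 and 6 times in the KO cytoplasm (log2 fold change 2.84 ± 0.66, SE, edgeR adjusted p = 0.00165), but 3 and 6 times against 3 and 1 times in total RNA (edgeR adjusted p = 0.295). The circle of exon 11 had 5 and 10 reads in WT and 1 read in each KO cytoplasmic library (log2 fold change -2.25 ± 0.74, SE, edgeR adjusted p = 0.0195) and was not listed in total RNA.

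Other Eif4g3 circles had under 10 reads in every library. The circle of exons 12 to 15 was read 8 and 9 times in the WT cytoplasm against 2 and 1 times in the KO cytoplasm, and 5 and 5 times against 3 and 8 times in total RNA. The circle of exons 12 to 13, which starts at the same splice site, was read once in each WT library and 3 and 5 times in the KO libraries of the cytoplasm. DESeq2 called no Eif4g3 circle. In total RNA 7 circles of the 10 genes were tested, all from Eif4g3 except 1 from Eif4g1, and edgeR called none of them (smallest adjusted p = 0.295). Over all 8903 circles of total RNA edgeR called 0, or 0.00%, with 3405 at an unadjusted p under 0.05, and DESeq2 called 8. In raw reads, the groups of all 7 overlapped, while 65.4% of the circles tested did not. In the nucleus, where 10.1% of 651 circles were called, the position inside Eif4b was not (edgeR adjusted p = 0.910). The Eif4e2 circle of exons 2 to 6 was read 2 and 0 times in WT against 4 and 2 times in KO total RNA, too few for the test.

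**Figure D5:**
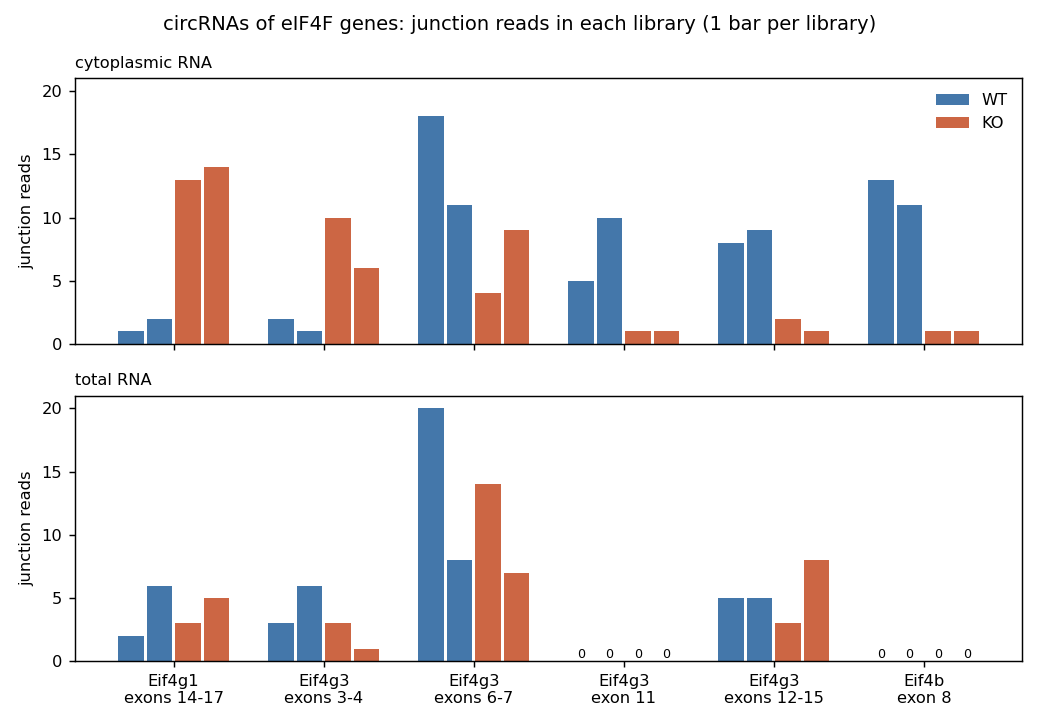
Junction reads of 6 circRNAs of Eif4g1, Eif4g3 and Eif4b in each cytoplasmic (top) and total RNA (bottom) library, 1 bar per library, 2 WT (blue) and 2 KO (orange). In the cytoplasm the Eif4g1 circle rises from 1 and 2 to 13 and 14 reads and the Eif4b circle falls from 13 and 11 to 1 and 1, while in total RNA the genotypes overlap for the 4 circles that are listed there.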

How the data were processed

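NIH/3T3 WT and XPO4 KO cells gave 6 mRNA-seq and 12 circRNA-seq libraries. For mRNA-seq, the authors aligned reads with HISAT2 and deposited raw read counts per gene from featureCounts (version 2.0.0, per the file headers) on GRCm38 (mm10), counted by exon and gene, without strand and without multi-mapping reads. For circRNA-seq, the authors ran find_circ and deposited the count of junction reads per position, without normalization or strand. Deposited starts were read as 0-based and are printed 1-based: 15678 of 16171 positions then had both ends on exon edges, against 1 otherwise. A circRNA was assigned to a member when both ends lay inside the gene, without regard to strand, because the files hold none. 7 rows with several positions were left out of the annotation.

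Gene symbols and exons came from GENCODE M21 (55141 of 55401 gene IDs matched without the version suffix), and sequences from GRCm38.p6. FPKM was computed from the counts, the exon length in the files and the total of counted reads. Genotypes were compared with edgeR's quasi-likelihood test (glmQLFTest after glmQLFit with TMM factors, edgeR 4.0.16 under R 4.3.3), with Benjamini-Hochberg adjustment over all features and a threshold of 0.05, on genes kept by filterByExpr or circRNAs with at least 10 reads over the 4 libraries of a fraction. Standard errors were taken from the F statistic. DESeq2 (version 1.42.0), other scalings, no filter, each library left out and the replicate number as a block were the alternatives. The scripts were tested on simulated data. The members and the gene lists were chosen with earlier results of these data known. Named genes are all members, the 3 called list genes with the largest log2 fold change in each direction whose mean count reached 50 in either genotype, circRNAs with at least 10 reads in 1 library and the most abundant circRNA of each member gene. Replicates differed by more than sampling noise (chi-square per gene between 3.36 and 14.5, the highest values with KO replicate 2). PCR reads without molecular identifiers are not independent molecules, so counts carry more error than counting alone.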

Additional observations from a re-analysis of the deposited data

How the results depend on the processing

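The log2 fold changes of the members kept their sign under every alternative except that of Eif4a2, which lay between -0.02 and 0.02. Without a filter, 6 genes of the 43S and eIF2 group were called in place of 10. With each library left out in turn, between 5 and 9 members, 4 and 11 other cap-complex partners, 3 and 8 of the 43S and eIF2 group and 5 and 11 eIF3 subunits were called, where the full set gave 8, 9, 10 and 9. The lowest of these came without KO replicate 1 or WT replicate 3 for the members, without WT replicate 2 for the partners, without WT replicate 3 for the 43S and eIF2 group, and without KO replicate 1, WT replicate 2 or WT replicate 3 for eIF3. The ratios within a library were recomputed only with each library left out, which in groups of 3 cannot move a mean by more than the SD, so this says nothing about their stability.

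Same-numbered mRNA-seq libraries did not deviate together (correlations between -0.12 and 0.09, and 2 of 6 libraries correlated best with their own number), so the numbers were not taken as pairs. With the replicate block, 7124 genes were called in mRNA-seq in place of 7151, 4445 circRNAs in the cytoplasm in place of 4768, 72 in the nucleus in place of 66 and 2054 in total RNA in place of 0. The circRNA counts depended on the processing. DESeq2 called 453 in the cytoplasm, 0 in the nucleus (59 at an unadjusted p under 0.05) and 8 in total RNA. No scaling gave 2353 in the cytoplasm and 0 in the nucleus (173 at an unadjusted p under 0.05). Scaling by library totals gave 43 in the nucleus and 2003 in total RNA, and no filter gave 40 in the nucleus. With each library left out, the calls ranged from 1928 to 3553 for cytoplasmic, from 3 to 29 for nuclear and from 0 to 508 for total RNA. The share of cytoplasmic calls higher in KO was 56.0% with edgeR, 83.0% with DESeq2 and 35.6% without scaling. The cause was not tested. At these read numbers only the Eif4g1 circle was called under each alternative run for it in the cytoplasm.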
